A study of Mus musculus with 6 samples.

Results

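The genes described here encode 39 enzymes that break down amino acids, taken from a list of mouse gene symbols that leaves out the urea cycle and the sulfur amino acids. All 39 names matched a row of the count table, which lists 32061 genes, and all 39 had enough counts to be tested. RNA came from liver hepatocytes, freed by collagenase perfusion and purified on a density gradient, from mice aged 10 to 12 weeks. In the senescent group (n = 3 libraries) the mice were AhCre+Mdm2fl/fl, with a Cre recombinase driven by a promoter induced through the aryl hydrocarbon receptor and a conditional allele of Mdm2, the ubiquitin ligase gene that restrains p53. In the healthy group (n = 3) they were AhCre-, and the sources used here do not say which Mdm2 alleles they carried. Mice of both groups were injected with an inducer, β-naphthoflavone in corn oil, at 20 mg/kg for 48 h. Presence of Cre and loss of Mdm2 cannot be told apart in this design, and no label ties a library to its own animal, so the spread behind the p-values may be technical.

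Amino acids in excess of the needs of protein synthesis are stripped of nitrogen, mostly by transaminases that pass it to glutamate, and their carbon skeletons are turned into pyruvate, acetyl-CoA or intermediates of the citric acid cycle. The liver holds most of these pathways. Several of their enzymes, among them tyrosine aminotransferase, tryptophan dioxygenase and serine dehydratase, are textbook examples of genes that rise with glucocorticoids and glucagon during fasting. Some steps are in the cytosol and others in mitochondria, where the branched-chain and lysine pathways are completed.

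Total counts were 29992707 to 32210591 in senescent and 28799392 to 33267299 in healthy libraries. Mdm2 had 19.0, 22.7 and 22.0 CPM (counts scaled to the TMM-adjusted library size) in healthy replicates 1, 2 and 3 and 465, 463 and 501 CPM in the senescent ones, and the p53 target Cdkn1a had 21.3, 31.1 and 54.3 and 653, 773 and 724 CPM. That count covers all of Mdm2 and is no check of its deletion. Values below follow the order of replicates 1, 2 and 3, with healthy before senescent. A value after ± is the SD (n = 3) of a level and the SE of a log2 fold change, which is negative where senescent cells were lower. Of 10 hepatocyte markers 7 fell (70%, against 20.7% of all genes tested). The summed level of the 10 was 142953 to 159721 CPM across the healthy libraries against 84785 to 98166 CPM across the senescent ones. That sum was largely Alb (90316 ± 9846 against 51520 ± 3860 CPM). Apob, Cps1 and Fgb did not pass, and Apob was higher in every senescent library (3188 ± 271 against 3855 ± 216 CPM). Of 11 macrophage markers 2 rose (18.2%, against 20.4% of all genes tested; sum 91.5 to 247 against 225 to 452 CPM). The log2 fold changes of all 11 were above 0 (0.72 to 1.23). Of 9 tested stellate cell or fibroblast markers 5 rose (55.6%, against 20.4% of all genes tested; sum 11.3 to 18.4 against 27.5 to 42.0 CPM). Acta2 was at 0 in every healthy library and in senescent replicate 3. Of 8 endothelial markers 1 rose (12.5%), and of 5 tested cholangiocyte markers 2 rose (40%) and 1 fell (20%). For all genes tested the shares were 20.4% higher and 20.7% lower. Only 3 of 7 lymphocyte or neutrophil markers could be tested, and 2 rose. Several of these rises were near the floor: Krt19 had 0.0685 against 0.746 CPM, S100a8 0.150 against 0.829 CPM and S100a9 0.207 against 1.17 CPM. The other cholangiocyte rise, Spp1, had 2.90 against 9.37 CPM. The 5 stellate cell or fibroblast rises were also at low levels. Col1a2 had 0.890 against 2.28 CPM, Col3a1 1.40 against 4.11 CPM and Reln 2.10 against 5.39 CPM. Rgs5 had 2.32 against 4.01 CPM and Dcn 4.62 against 13.0 CPM. The part of these other cells in the results below was not tested, and in such bulk samples fewer cells of a type and less RNA per cell cannot be told apart.

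The comparison asks which of these genes differ between senescent and healthy hepatocytes. Transcripts of amino acid breakdown were lower in senescent cells for most enzymes and higher for a few. Of 39 genes 31 fell, 3 rose and 5 did not pass, by edgeR's quasi-likelihood test with Benjamini-Hochberg adjustment over all 12949 genes tested and a threshold of 0.05. Over all genes tested, 20.7% were called lower and 20.4% higher (41.1% in either direction). These shares are also the background for every count by pathway given below. The 3 that rose were Ftcd and Uroc1, both of histidine breakdown, and the alanine transaminase gene Gpt. Falls of at least 2-fold were found for 16 of the 39 (against 6.94% of all genes tested), and the single rise of that size was that of Ftcd (background 10.4%). The groups' values did not overlap for 36 of the 39, with 33 lower and 3 higher in senescent cells, whereas 54.0% of all genes tested did not overlap (27.2% lower, 26.8% higher). The median log2 fold change was -0.79, against 0.01 over all genes tested.

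Together these transcripts took 1.61%, 1.33% and 1.35% of all counts in the healthy libraries and 1.08%, 1.19% and 1.09% in the senescent ones. Every senescent share was below every healthy share, and the means were 1.43% ± 0.158 and 1.12% ± 0.0596 (SD, n = 3; two-sided exact permutation test, p = 0.1, the smallest that 3 against 3 libraries can give). Such a share weighs abundant genes most. Hpd went from 2627 ± 256 to 686 ± 80.0 CPM and Tat from 1529 ± 354 to 544 ± 194 CPM. The 39 genes summed to 14815 to 18056.5 CPM across the healthy and 9455 to 11154 CPM across the senescent libraries. The 3 genes that rose count the other way in these sums. The libraries of a group were not alike. Healthy replicate 1 had the highest healthy value for 31 of the 39 genes, and senescent replicate 3 the lowest senescent value for 28. Without healthy replicate 1, 28 genes fell and 3 rose, and without senescent replicate 3, 24 fell and 2 rose. Within groups the highest healthy value was at the median 1.35 times the lowest, and the highest senescent value 1.20 times the lowest.

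**Figure D1:**
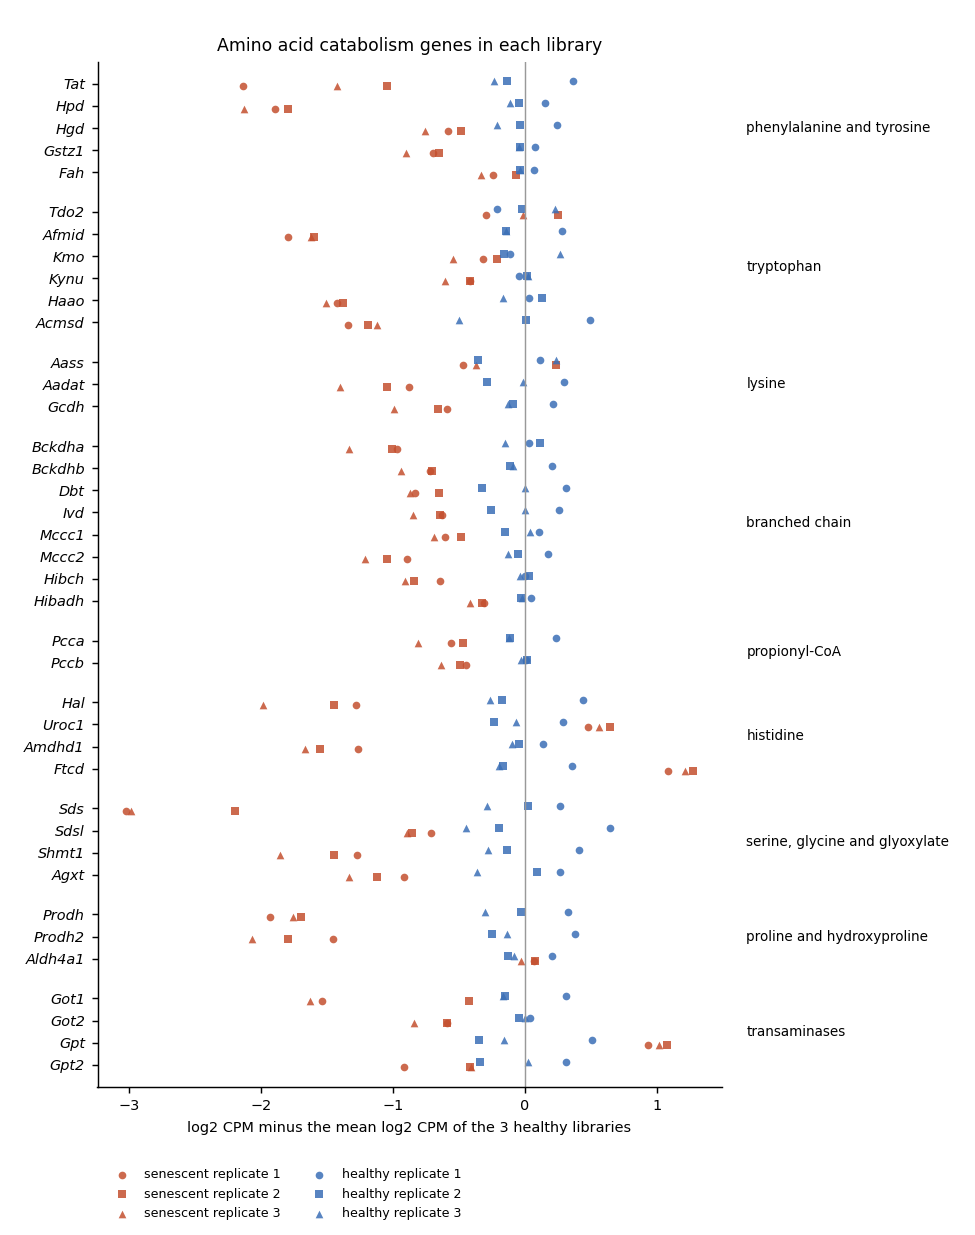
Each library's log2 CPM for the 39 genes, less the mean log2 CPM of the 3 healthy libraries, grouped by pathway (blue, healthy; orange, senescent; symbols mark replicates). The senescent values lie left of the healthy ones for 33 genes and right of them for Uroc1, Ftcd and Gpt.

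The scaling moved the number of falls called. When libraries were scaled by total count alone, 23 of the 39 genes fell and 3 rose, and the median was -0.48. That scaling moved the median of all genes tested from 0.01 to 0.33, and calls over all genes became 9.92% lower and 37.5% higher, so that 79.1% of calls were rises against 49.7% with TMM. The same 3 genes rose on both scales.

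In histidine breakdown neighbouring steps went opposite ways. The first and the third enzyme genes fell and the second and the fourth rose. Hal (ENSMUSG00000020017; GRCm38 chromosome 10, 93488768 to 93519304) encodes histidine ammonia-lyase, which turns histidine into urocanate. It had 845, 553 and 519 CPM in the healthy and 256, 229 and 157 CPM in the senescent libraries, a fall of 2.99-fold (log2 fold change -1.58 ± 0.24, edgeR adjusted p = 0.00155). Every senescent library was below every healthy one, and healthy replicate 1 stood highest. Uroc1 (ENSMUSG00000034456; GRCm38 chromosome 6, 90333284 to 90364551) encodes urocanase, the next enzyme. It had 783, 545 and 611 CPM in the healthy and 889, 1001 and 945 CPM in the senescent libraries, higher in all 3 senescent libraries (0.55 ± 0.16, edgeR adjusted p = 0.0274). This rise was the weakest of the pathway's changes: its call was lost without senescent replicate 2 (edgeR adjusted p = 0.0661), senescent replicate 3 (0.0562), healthy replicate 2 (0.0935) or healthy replicate 3 (0.0664).

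Amdhd1 (ENSMUSG00000015890; GRCm38 chromosome 10, 93523338 to 93540033) encodes imidazolonepropionase, the third enzyme. It had 297, 262 and 253 CPM in the healthy and 113, 91.8 and 85.2 CPM in the senescent libraries (-1.49 ± 0.14, edgeR adjusted p = 1.28e-04). Ftcd (ENSMUSG00000001155; GRCm38 chromosome 10, 76575648 to 76590338) encodes formimidoyltransferase cyclodeaminase, which passes the formimino group of the opened ring to tetrahydrofolate. It had 489.7, 339 and 333 CPM in the healthy and 809, 923 and 887 CPM in the senescent libraries, a rise of 2.25-fold (1.17 ± 0.18, edgeR adjusted p = 0.00141). The lowest senescent value of Ftcd was above the highest healthy one. A ratio of transcripts within a library does not depend on the scaling. Hal over Ftcd was 1.73, 1.63 and 1.56 in healthy and 0.317, 0.248 and 0.177 in senescent libraries. Amdhd1 over Uroc1 was 0.379, 0.481 and 0.413 and 0.127, 0.0917 and 0.0901. These ratios were chosen after the values were seen and carry no test. The summed level of the 4 transcripts was 1698 to 2415 CPM across the healthy libraries and 2067 to 2244 CPM across the senescent ones, ranges that overlap.

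**Figure D2:**
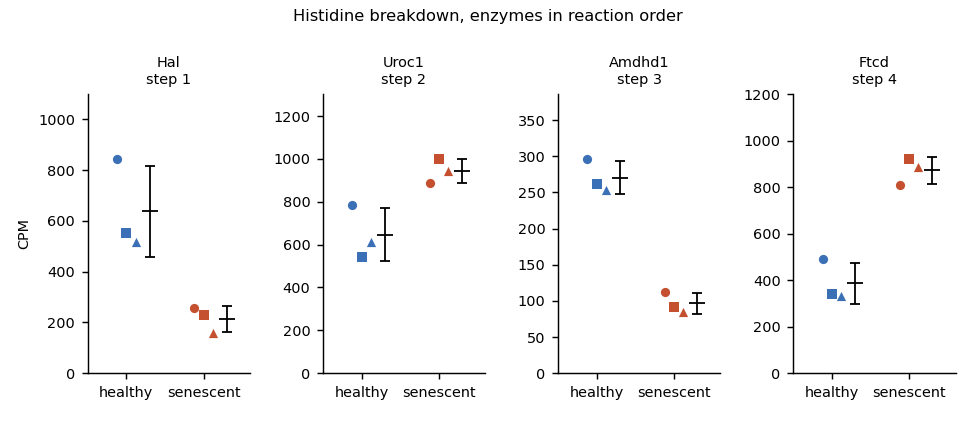
CPM of the 4 histidine breakdown genes in reaction order, with each library as a point (circle, square and triangle for replicates 1, 2 and 3) and the mean ± SD (n = 3) beside it. Hal and Amdhd1 are lower and Uroc1 and Ftcd higher in every senescent library than in any healthy library.

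The fallen genes Hal and Amdhd1 lie next to each other on chromosome 10, pointing towards each other with 4033 bases between their ends, while Ftcd is elsewhere on that chromosome and Uroc1 on chromosome 6. The 250 bases before each start are shown because the 4 genes serve a single pathway and moved in 2 directions. Starts here are those of RefSeq, and that of Uroc1 lies slightly downstream of the GENCODE start given above, so that the last bases of its stretch fall inside the gene as GENCODE has it. The sequences are RefSeq promoters on GRCm38.p6, written 5′ to 3′ on the gene's strand, and capitals mark matches to the motifs searched.
Hal, chr10:93488518-93488767, plus strand: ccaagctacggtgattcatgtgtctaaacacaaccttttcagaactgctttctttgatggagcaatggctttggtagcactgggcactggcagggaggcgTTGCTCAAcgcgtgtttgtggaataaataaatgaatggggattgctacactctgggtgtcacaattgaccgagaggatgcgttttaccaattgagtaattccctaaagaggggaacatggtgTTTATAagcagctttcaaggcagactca
Amdhd1, chr10:93540034-93540283, minus strand: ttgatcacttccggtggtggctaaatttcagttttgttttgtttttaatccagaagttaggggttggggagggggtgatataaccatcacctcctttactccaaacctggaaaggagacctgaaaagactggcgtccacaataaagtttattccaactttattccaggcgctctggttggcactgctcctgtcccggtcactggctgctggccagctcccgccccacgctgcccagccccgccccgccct
Uroc1, chr6:90333039-90333288, plus strand: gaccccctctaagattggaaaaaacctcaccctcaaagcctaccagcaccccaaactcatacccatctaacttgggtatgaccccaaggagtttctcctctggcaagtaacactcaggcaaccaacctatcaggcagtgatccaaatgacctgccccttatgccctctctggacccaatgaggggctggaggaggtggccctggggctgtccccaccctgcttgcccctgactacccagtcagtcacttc
Ftcd, chr10:76575398-76575647, plus strand: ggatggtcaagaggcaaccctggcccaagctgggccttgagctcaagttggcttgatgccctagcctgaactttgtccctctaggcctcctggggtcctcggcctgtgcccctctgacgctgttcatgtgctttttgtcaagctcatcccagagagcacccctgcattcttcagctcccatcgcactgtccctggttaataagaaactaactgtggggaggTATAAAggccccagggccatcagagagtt
The search covered both strands. The C/EBP motif was spelled TTGCNNAA, the HNF4 motif CAAAGTCCA, and the CREB motif TGACGTCA. For the glucocorticoid receptor the letters were TGTTCT, for the TATA box they were TATAAA, and an HNF1 motif was searched as well. Hal held a C/EBP match that began 150 bases before the start and a TATA match on the opposite strand that began 28 bases before it. Ftcd held a TATA match on its own strand that began 29 bases before the start. These matches did not overlap each other, and Amdhd1 and Uroc1 held none of these letters in this window. Of the 39 genes, 34 had a promoter in the RefSeq table. Where a gene had several, the one nearest the GENCODE start was used for these 34. The first listed was used for the promoters of all genes, so the 2 percentages of each motif rest on unlike choices. The C/EBP letters were in 5 of them (14.7%) and in 9.55% of 27025 promoters of the same length, and the TATA letters in 5 (14.7%) and 13% of all. TGTTCT was in 4 (11.8%, against 16.2%), the HNF4 letters in 1 (2.94%, against 0.381%), the HNF1 letters in 1 (2.94%, against 0.411%) and the CREB letters in 0 of 34 (1.62% of all). A match describes letters and is not a binding site.

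All 4 genes of serine, glycine and glyoxylate breakdown fell, and Sds fell most of the 39 genes. Sds (ENSMUSG00000029597; GRCm38 chromosome 5, 120476526 to 120483932) encodes serine dehydratase, which turns serine into pyruvate and feeds gluconeogenesis. It had 365, 309 and 248 CPM in the healthy and 37.3, 66.4 and 38.4 CPM in the senescent libraries, a fall of 6.49-fold (-2.70 ± 0.26, edgeR adjusted p = 1.25e-04). Its neighbour Sdsl, a serine dehydratase-like gene that points the other way with 3715 bases between the 2 genes, had 20.7, 11.6 and 9.72 CPM in the healthy and 8.09, 7.34 and 7.15 CPM in the senescent libraries (-0.90 ± 0.27, edgeR adjusted p = 0.0267). The Sdsl groups do not overlap, but its level is low and healthy replicate 1 is high. The call of Sdsl was lost without senescent replicate 1 (edgeR adjusted p = 0.0502), 2 (0.0734) or 3 (0.0978) and on the total-count scale (0.0955). Shmt1, the cytosolic serine hydroxymethyltransferase gene that links serine and glycine to folate, had 314, 215 and 194 CPM in the healthy and 97.8, 86.6 and 65.1 CPM in the senescent libraries (-1.54 ± 0.22, edgeR adjusted p = 0.00102). Agxt, which encodes the aminotransferase that removes glyoxylate with alanine as the donor, went from 376 ± 80.7 to 171 ± 24.3 CPM (edgeR adjusted p = 0.00209). Each of the 4 was lower in every senescent library than in any healthy one. Of the annotated exonic bases of Sds 29.6% are shared with Plbd2 and Gm15690 on the opposite strand. Plbd2 did not pass the test (96.9 ± 0.744 CPM against 111 ± 3.41 CPM, edgeR adjusted p = 0.137). In the list of other genes of these pathways 7 of 11 tested fell and 0 rose. The smallest p there was that of Gldc, the decarboxylase gene of the glycine cleavage system, which went from 264 ± 41.8 to 114 ± 8.45 CPM (edgeR adjusted p = 3.87e-04). Shmt2, the mitochondrial counterpart of Shmt1, fell from 251 ± 12.0 to 143 ± 21.2 CPM (edgeR adjusted p = 0.00237).

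Both enzymes that start proline and hydroxyproline breakdown fell, and the enzyme shared by the 2 pathways did not pass the test. Prodh, whose mitochondrial enzyme starts proline breakdown, had 349, 272 and 226 CPM in the healthy and 72.7, 85.8 and 82.2 CPM in the senescent libraries (-1.81 ± 0.17, edgeR adjusted p = 1.29e-04). Prodh2, which does the same for hydroxyproline, had 315, 204 and 221 CPM in the healthy and 88.4, 69.6 and 57.8 CPM in the senescent libraries (-1.78 ± 0.21, edgeR adjusted p = 4.38e-04). Aldh4a1, the dehydrogenase gene that acts on the products of both, had 350.0, 278 and 287 CPM in the healthy and 318, 320.0 and 297 CPM in the senescent libraries, and its groups overlap (0.03 ± 0.13, edgeR adjusted p = 0.858). Of its exonic bases 32.5% are shared with Gm21969 on the same strand, so its count is uncertain. Hoga1, which completes hydroxyproline breakdown, went from 111 ± 23.5 to 74.1 ± 8.75 CPM (edgeR adjusted p = 0.024), a call lost on the total-count scale (edgeR adjusted p = 0.187) and without 3 of the 6 libraries in turn, senescent replicates 1 and 3 and healthy replicate 1 (0.0512 to 0.0961).

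Of the 4 general transaminase genes, Got1, Got2 and Gpt2 fell and Gpt rose. These enzymes gather amino groups from other amino acids onto glutamate and aspartate, and each pair holds a mainly cytosolic and a mitochondrial enzyme. Gpt (ENSMUSG00000022546; GRCm38 chromosome 15, 76695716 to 76699686), the cytosolic alanine transaminase gene, had 515, 283 and 324 CPM in the healthy and 691, 764 and 731 CPM in the senescent libraries, a rise of 1.95-fold (0.96 ± 0.22, edgeR adjusted p = 0.00921). Gpt2, the mitochondrial form, had 432, 276 and 355 CPM in the healthy and 185, 261 and 263 CPM in the senescent libraries (-0.58 ± 0.20, edgeR adjusted p = 0.0485). All senescent values of Gpt were above all healthy ones, while the Gpt2 groups came close to each other, between healthy replicate 2 and senescent replicates 2 and 3. The fall of Gpt2 was just inside the threshold and its call was lost on the total-count scale (edgeR adjusted p = 0.281), with the replicate number as a block (0.0792) and without 5 of the 6 libraries in turn (0.0783 to 0.154), the exception being healthy replicate 2.

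Got1, the cytosolic aspartate transaminase gene, had 465, 339 and 335 CPM in the healthy and 129, 280.2 and 121 CPM in the senescent libraries (-1.10 ± 0.32, edgeR adjusted p = 0.0244). Senescent replicate 2 stood apart from the other senescent libraries. The call was lost without senescent replicate 1 (edgeR adjusted p = 0.0744), senescent replicate 3 (0.0907) or healthy replicate 1 (0.0646). Got2, the mitochondrial form, had 578, 545 and 564 CPM in the healthy and 373, 373 and 314 CPM in the senescent libraries, with a narrow spread in both groups (-0.67 ± 0.13, edgeR adjusted p = 0.00394). Glud1, whose enzyme releases the amino group of glutamate as ammonia, fell from 1446 ± 158 to 1066 ± 55.2 CPM (edgeR adjusted p = 0.0377), a call lost on the total-count scale (edgeR adjusted p = 0.464) and without 5 of the 6 libraries in turn (0.0837 to 0.149), the exception being healthy replicate 1.

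**Figure D3:**
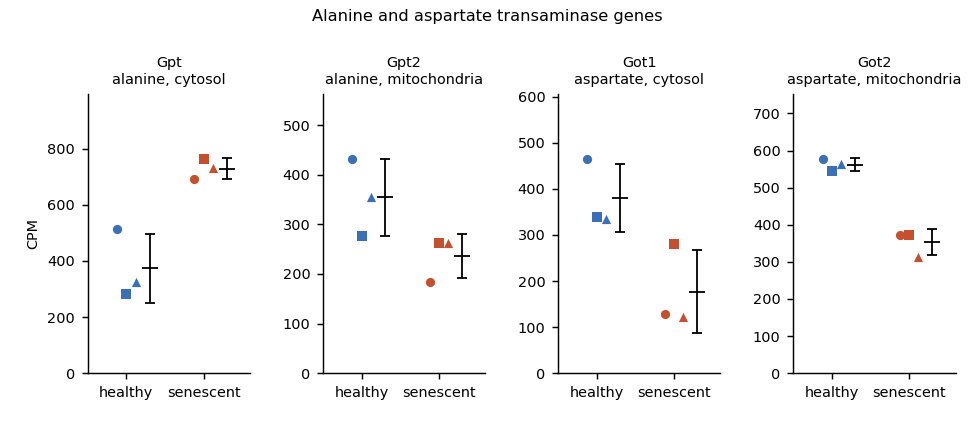
CPM of the 4 transaminase genes in each library (circle, square and triangle for replicates 1, 2 and 3) with the mean ± SD (n = 3) beside it. Gpt is higher in every senescent library, and senescent replicate 2 stands apart for Got1.

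Ratios of paired isozymes within a library were compared for 5 pairs by two-sided exact permutation tests, for which p = 0.1 is the smallest possible value. The genes of these pairs come from lists chosen with earlier results of these data known, so the p-values only describe the ratios. Gpt over Gpt2 was 1.19, 1.03 and 0.912 in healthy and 3.74, 2.92 and 2.78 in senescent libraries (log2 change 1.59, exact p = 0.1, 0.167 after Benjamini-Hochberg adjustment over the 5 pairs). Sds over Sdsl was 17.6, 26.7 and 25.5 against 4.61, 9.04 and 5.38 (log2 change -1.92, exact p = 0.1, adjusted 0.167). The cytosolic over the mitochondrial serine hydroxymethyltransferase, Shmt1 over Shmt2, was 1.19, 0.873 and 0.805 against 0.596, 0.599 and 0.534 (log2 change -0.71, exact p = 0.1, adjusted 0.167). In these 3 pairs the groups did not overlap, although the design cannot reach 0.05. Got1 over Got2 overlapped between the groups, at 0.805, 0.623 and 0.595 and 0.346, 0.751 and 0.387 (log2 change -0.52, exact p = 0.3, adjusted 0.375). Prodh over Prodh2 also overlapped, at 1.11, 1.33 and 1.02 and 0.822, 1.23 and 1.42 (log2 change -0.02, exact p = 1).

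In phenylalanine and tyrosine breakdown 4 of 5 genes fell, most of all Tat and Hpd, of the first 2 steps of tyrosine breakdown. Tat (ENSMUSG00000001670; GRCm38 chromosome 8, 109990437 to 109999803) encodes tyrosine aminotransferase, the rate-limiting enzyme, and had 1934, 1371 and 1281 CPM in the healthy and 342, 729 and 560.4 CPM in the senescent libraries (-1.49 ± 0.29, edgeR adjusted p = 0.00414). Hpd (ENSMUSG00000029445; GRCm38 chromosome 5, 123171807 to 123182727) encodes the dioxygenase that makes homogentisate, and had 2914, 2544 and 2423 CPM in the healthy and 703, 756 and 598 CPM in the senescent libraries, a fall of 3.83-fold (-1.94 ± 0.16, edgeR adjusted p = 6.00e-05). Every senescent value of both genes was below every healthy one, and Hpd remained the most abundant of the 39 transcripts per kilobase in both groups. Hgd, which opens the ring of homogentisate, had 673, 553 and 491 CPM in the healthy and 378, 406 and 336 CPM in the senescent libraries (-0.62 ± 0.16, edgeR adjusted p = 0.0139). Its call was lost on the total-count scale (edgeR adjusted p = 0.107) and without senescent replicate 3 (0.0678). Gstz1, the maleylacetoacetate isomerase gene, had 684, 629.5 and 629 CPM in the healthy and 399, 412 and 347 CPM in the senescent libraries (-0.75 ± 0.13, edgeR adjusted p = 0.00252), and 12.2% of its exonic bases are shared with genes on the opposite strand, among them Pomt2, which went from 21.2 to 58.3 CPM.

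Fah, the last enzyme of the tyrosine pathway, which yields fumarate and acetoacetate, had 691, 641 and 639 CPM in the healthy and 557, 626 and 521 CPM in the senescent libraries. Its groups did not overlap, but the difference did not pass the test (-0.21 ± 0.13, edgeR adjusted p = 0.223). The pathway thus held changes of unequal size, largest for Hpd and not called for Fah. Among the listed other genes of this group the smallest p was that of Qdpr, which encodes the reductase that regenerates the cofactor tetrahydrobiopterin and fell from 603 ± 111 to 221 ± 15.7 CPM (edgeR adjusted p = 3.10e-04).

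In tryptophan breakdown 4 of 6 genes fell, while Tdo2, of the ring-opening step, and Kmo did not pass the test. Tdo2 (ENSMUSG00000028011; GRCm38 chromosome 3, 81957090 to 81976202) encodes tryptophan dioxygenase, which opens the indole ring in liver. It had 866, 985 and 1171 CPM in the healthy and 817, 1190.3 and 990.1 CPM in the senescent libraries, with overlapping groups (-0.01 ± 0.18, edgeR adjusted p = 0.966). Afmid, whose formamidase makes kynurenine, had 64.7, 48.3 and 48.4 CPM in the healthy and 15.4, 17.6 and 17.3 CPM in the senescent libraries (-1.68 ± 0.15, edgeR adjusted p = 7.73e-05). All senescent Afmid values were below all healthy ones. Of its exonic bases 46.6% are shared with Tk1 on the opposite strand and Gm20708 on the same strand, and Tk1 also fell, from 28.0 to 10.3 CPM (edgeR adjusted p = 0.00547). The counting's strand setting is unknown here, so these reads cannot be told apart with certainty.

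Kmo, the kynurenine hydroxylase gene, had 241, 234 and 314 CPM in the healthy and 209, 225 and 179 CPM in the senescent libraries without overlap, but did not pass (-0.36 ± 0.16, edgeR adjusted p = 0.0932). Kynu, which cleaves off alanine, had 165, 172 and 174 CPM in the healthy and 128, 128 and 112 CPM in the senescent libraries (-0.47 ± 0.11, edgeR adjusted p = 0.00935). The Kynu call was lost on the total-count scale (edgeR adjusted p = 0.225) and without senescent replicate 3 (0.0661). Haao, the dioxygenase gene whose product leads to quinolinate, had 646, 691 and 564 CPM in the healthy and 235, 243 and 222 CPM in the senescent libraries (-1.44 ± 0.13, edgeR adjusted p = 9.74e-05). Acmsd, which diverts that intermediate away from NAD synthesis, fell from 30.5 ± 10.3 to 12.6 ± 0.946 CPM (edgeR adjusted p = 0.00314). Qprt, which takes quinolinate on towards NAD, fell from 177 ± 30.2 to 106 ± 3.01 CPM (edgeR adjusted p = 0.00396). Of 5 other tryptophan genes tested 4 fell and 0 rose, with the smallest p for the kynurenine aminotransferase gene Kyat3 (268 ± 18.2 CPM against 105 ± 11.3 CPM, edgeR adjusted p = 1.15e-04). Of the Ido genes, whose dioxygenases open the same ring as Tdo2, Ido1 had 0 counts in all 6 libraries. Ido2, singled out after its values were seen, had 97.8, 97.8 and 92.3 CPM in the healthy and 58.8, 67.4 and 51.6 CPM in the senescent libraries and fell without overlap (-0.69 ± 0.12, edgeR adjusted p = 0.00307).

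In lysine breakdown 2 of 3 genes fell. Aass, the bifunctional enzyme gene of the first mitochondrial steps, had 358, 259 and 389 CPM in the healthy and 239, 390.0 and 256 CPM in the senescent libraries. The Aass groups overlap (-0.19 ± 0.22, edgeR adjusted p = 0.535). Aadat, the aminoadipate aminotransferase gene, had 68.1, 45.6 and 55.2 CPM in the healthy and 30.2, 26.9 and 20.99 CPM in the senescent libraries (-1.11 ± 0.19, edgeR adjusted p = 0.00218). Gcdh, the glutaryl-CoA dehydrogenase gene, had 641, 519 and 507 CPM in the healthy and 367, 350.0 and 278 CPM in the senescent libraries (-0.74 ± 0.16, edgeR adjusted p = 0.0069). For Aadat and Gcdh every senescent library was below every healthy one. Of 9 other genes of this group 6 fell and 1 rose. The smallest p among the falls was that of Pipox, the pipecolate oxidase gene (239 ± 24.2 CPM against 113 ± 7.85 CPM, edgeR adjusted p = 3.43e-04), and the rise was that of Phykpl, the phosphohydroxylysine lyase gene (10.1 ± 1.09 CPM against 19.3 ± 2.33 CPM, edgeR adjusted p = 0.00139). Aldh7a1, which acts between Aass and Aadat, did not pass (525 ± 51.2 CPM against 578 ± 34.1 CPM, edgeR adjusted p = 0.422), but was called higher on the total-count scale (log2 fold change 0.45, edgeR adjusted p = 0.0171).

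All 8 genes of branched-chain amino acid breakdown fell, without overlap between the groups, by log2 fold changes of -1.10 to -0.35. The branched-chain ketoacid dehydrogenase complex commits leucine, isoleucine and valine to oxidation, and the genes of both E1 subunits and of E2 were lower. Bckdha, E1 alpha, had 238, 251 and 209.9 CPM in the healthy and 118, 116 and 92.4 CPM in the senescent libraries (-1.10 ± 0.14, edgeR adjusted p = 5.60e-04). Bckdhb, E1 beta, had 76.4, 61.1 and 62.1 CPM in the healthy and 40.3, 40.6 and 34.5 CPM in the senescent libraries (-0.79 ± 0.13, edgeR adjusted p = 0.00216). Dbt, the E2 core, had 97.8, 62.8 and 78.8 CPM in the healthy and 44.2, 50.0 and 42.9 CPM in the senescent libraries (-0.81 ± 0.17, edgeR adjusted p = 0.00598). Of the Bckdha exonic bases 61.7% are shared with B3gnt8 on the opposite strand, which had 0.364 ± 0.184 CPM against 0.135 ± 0.0902 CPM. Dld, the E3 subunit that other dehydrogenase complexes also use, fell from 123 ± 7.36 to 92.0 ± 1.81 CPM (edgeR adjusted p = 0.0123). The Dld call was lost on the total-count scale (edgeR adjusted p = 0.425) and without senescent replicate 2 (0.069) or senescent replicate 3 (0.0739).

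The complex is switched off by the kinase Bckdk and on by the phosphatase Ppm1k. Ppm1k had 51.5, 53.7 and 51.4 CPM in the healthy and 14.5, 11.5 and 7.61 CPM in the senescent libraries, a fall of 4.66-fold (-2.22 ± 0.21, edgeR adjusted p = 1.23e-04). Bckdk did not pass (9.92 ± 2.35 CPM against 8.56 ± 1.07 CPM, edgeR adjusted p = 0.396), nor did Bcat2, the transaminase gene of the preceding step (21.9 ± 7.39 CPM against 16.2 ± 2.04 CPM, edgeR adjusted p = 0.153). Bcat1 had 0 counts in all 6 libraries.

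Leucine's own branch held Ivd, the isovaleryl-CoA dehydrogenase gene, and both subunits of methylcrotonyl-CoA carboxylase. Ivd had 256, 179 and 214 CPM in the healthy and 139, 137 and 119 CPM in the senescent libraries (-0.72 ± 0.15, edgeR adjusted p = 0.00666). Mccc1, the biotin-carrying subunit, fell from 67.7 ± 6.09 to 44.9 ± 3.19 CPM (edgeR adjusted p = 0.00472), and Mccc2, its partner, fell from 68.3 ± 7.59 to 33.0 ± 3.60 CPM (edgeR adjusted p = 5.48e-04). The Mccc1 call was lost on the total-count scale (edgeR adjusted p = 0.0684). In valine's branch Hibch, the hydroxyisobutyryl-CoA hydrolase gene, had 73.5, 75.0 and 71.7 CPM in the healthy and 46.9, 40.9 and 39.0 CPM in the senescent libraries (-0.80 ± 0.11, edgeR adjusted p = 9.51e-04). Hibadh, the dehydrogenase gene that follows, fell least of the 8, from 301 ± 8.59 to 237 ± 9.51 CPM (edgeR adjusted p = 0.0331). The Hibadh call was lost on the total-count scale (edgeR adjusted p = 0.791), with no filter (0.0631) and without 5 of the 6 libraries in turn (0.0591 to 0.159), the exception being healthy replicate 3. Of 12 other branched-chain genes tested 8 fell and 1 rose. The rise was that of Acad8, the isobutyryl-CoA dehydrogenase gene, which acts upstream of Hibch (76.0 ± 2.43 CPM against 111 ± 7.58 CPM, edgeR adjusted p = 0.0043).

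Isoleucine and valine yield propionyl-CoA, and both subunits of the carboxylase that takes it on fell. Pcca had 93.4, 73.4 and 73.0 CPM in the healthy and 53.9, 57.3 and 45.4 CPM in the senescent libraries (-0.62 ± 0.14, edgeR adjusted p = 0.0102). Pccb had 211, 212 and 206 CPM in the healthy and 154, 149 and 135 CPM in the senescent libraries (-0.52 ± 0.11, edgeR adjusted p = 0.00605). Both calls were lost on the total-count scale (edgeR adjusted p = 0.0906 and 0.13), and that of Pcca also without senescent replicate 3 (0.0549). Of the next steps, Mcee, the epimerase gene, rose from 35.2 ± 2.64 to 47.8 ± 5.61 CPM (edgeR adjusted p = 0.0222), and Mut, the B12-dependent mutase gene, did not pass (174 ± 23.5 CPM against 157 ± 13.9 CPM, edgeR adjusted p = 0.406). The Mcee call was lost without senescent replicate 2 (edgeR adjusted p = 0.0652), healthy replicate 2 (0.0699) or healthy replicate 3 (0.0519). Mmab, which makes the active form of that cofactor, fell from 28.2 ± 5.10 to 13.7 ± 1.01 CPM (edgeR adjusted p = 0.00105).

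**Figure D4:**
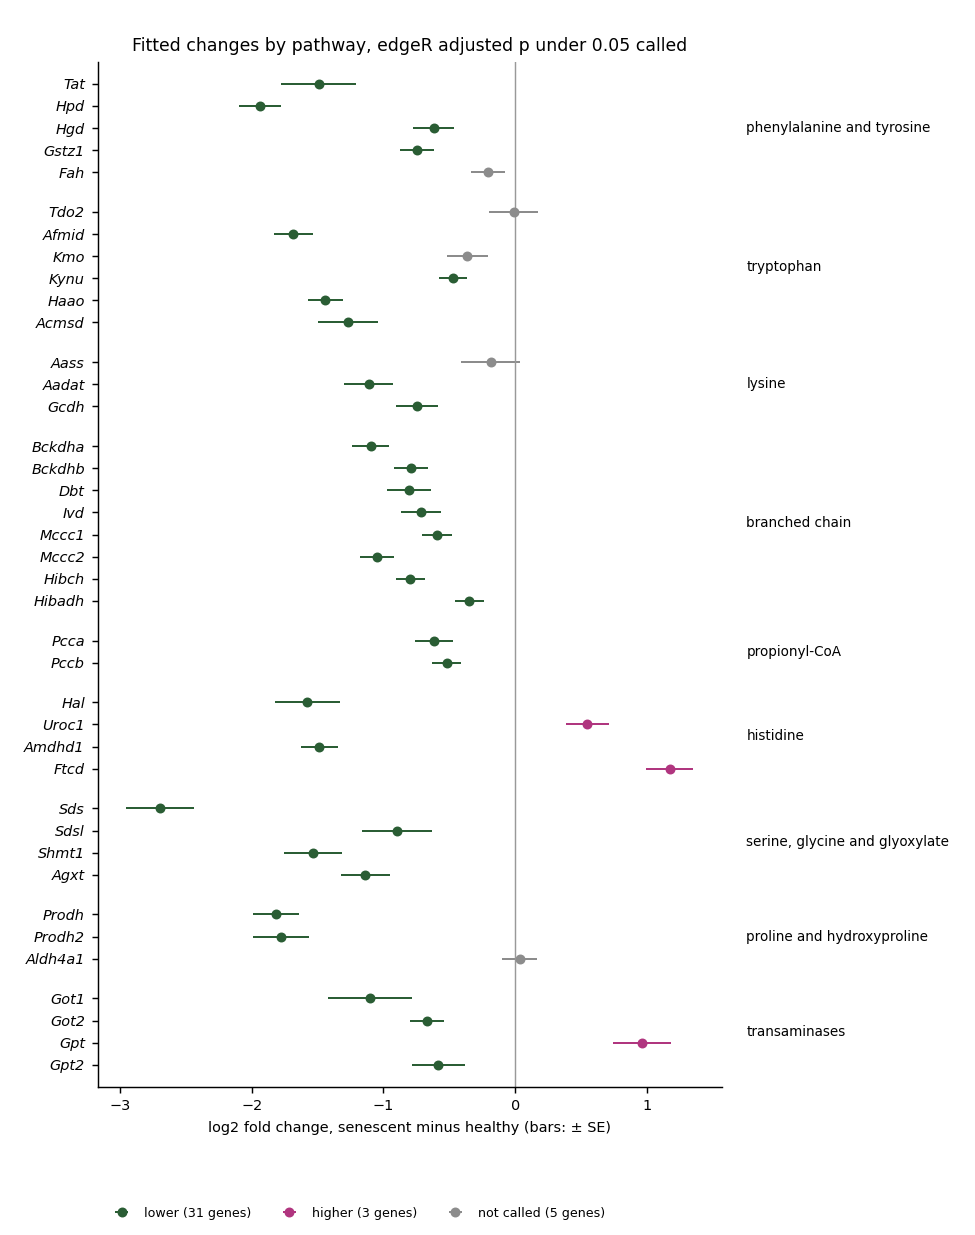
Log2 fold change (senescent minus healthy, ± SE) of the 39 genes by pathway, from the edgeR fit. All 8 branched-chain and all 4 serine, glycine and glyoxylate genes lie below 0 and were called, while histidine breakdown holds 2 falls and 2 rises.

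Levels were compared between genes per kilobase of annotated exon (CPM per kilobase). The length takes all annotated exons of a gene together, whichever transcripts were present, and includes bases shared with other genes. Ranks between genes therefore depend on the annotation as well. Hpd led in both groups, at 1235 in healthy and 322 in senescent cells. Ftcd moved from rank 15 to 2 of the 39, at 121 and 273, and Uroc1 from 8 to 3, at 186 and 272. Gpt moved from rank 13 to 6, and Sds from 9 to 24, at 181 and 28.0. Of the 10 genes with the highest healthy level 7 fell and 1 rose, and of the 10 with the lowest all 10 fell. By where the enzymes act, a grouping made after the values were seen and not tested, 16 of 19 mitochondrial genes fell and 0 rose, with a median log2 fold change of -0.72. Of 18 genes whose enzymes are not mitochondrial 13 fell and 3 rose, with a median of -1.19. The 2 genes whose enzymes were placed in more than 1 compartment both fell, with a median of -0.94. Beside all these counts, 20.7% of all genes tested were called lower and 20.4% higher, with a median of 0.01.

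Other genes of the same pathways were described from lists that exclude the 39. The table held 62, and of the 58 that could be tested 36 fell (62.1%) and 4 rose (6.9%). Over all genes tested the shares were 20.7% and 20.4%. The median log2 fold change of the 58 was -0.55. The 4 rises were Phykpl, Acad8, Mcee and Asrgl1, an asparaginase-like gene (14.7 ± 1.15 CPM against 22.9 ± 1.51 CPM, edgeR adjusted p = 0.00331). Of 8 genes of glutamate, glutamine, aspartate and asparagine metabolism 4 fell and 1 rose, and the smallest p among the falls was that of the asparaginase gene Aspg (249 ± 2.50 CPM against 127 ± 18.7 CPM, edgeR adjusted p = 8.99e-04). Of 4 further proline genes 2 fell, Hoga1 and Pycrl, a pyrroline-carboxylate reductase gene of proline synthesis (21.2 ± 1.96 CPM against 14.97 ± 1.59 CPM, edgeR adjusted p = 0.0153). The Pycrl call was lost on the total-count scale (edgeR adjusted p = 0.249) and without 3 of the 6 libraries in turn, senescent replicates 2 and 3 and healthy replicate 2 (0.0539 to 0.0938).

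Of 16 amino acid transporter genes 3 fell (18.8%), 2 rose (12.5%) and 11 did not pass, with a median log2 fold change of -0.46. Both shares were below those of all genes tested (20.7% lower and 20.4% higher). The smallest p among the falls was that of Slc38a4, which takes up neutral amino acids in hepatocytes. It had 926, 793 and 900.3 CPM in the healthy and 244, 293 and 209 CPM in the senescent libraries (-1.81 ± 0.16, edgeR adjusted p = 8.85e-05). Among the rises it was that of Slc3a2, the heavy chain shared by several exchangers (49.1 ± 3.38 CPM against 71.9 ± 3.20 CPM, edgeR adjusted p = 0.0044). Of 14 genes of regulators of these pathways 6 fell (42.9%) and 1 rose (7.14%), against 20.7% and 20.4% of all genes tested. Their median was -0.52. Cebpa, a transcription factor of the mature hepatocyte, had 429.6, 418 and 347 CPM in the healthy and 156, 141 and 134 CPM in the senescent libraries (-1.47 ± 0.13, edgeR adjusted p = 1.00e-04). The rise was that of Nr3c1, the glucocorticoid receptor gene (67.2 ± 6.76 CPM against 94.6 ± 3.73 CPM, edgeR adjusted p = 0.00981). The part of these regulators in the changes of the 39 genes was not tested.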

How the data were processed

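RNA of isolated hepatocytes was sequenced in 6 libraries, 3 senescent and 3 healthy, grouped by their titles. The authors deposited raw counts per Ensembl gene. The submitters' processing notes name the GRCm38 build and, with no role or order, STAR 2.7.1a, featureCounts, cutadapt 1.16, DESeq2 1.34.0, MultiQC 1.3 and FastQC. Which annotation release and strand setting served the counting is not known here, so overlapping genes are uncertain. The column taken as healthy replicate 2 differs from its label in a single letter, and without it 30 of the 39 genes fell and 2 rose.

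Symbols were found for 31976 of 32061 IDs (99.7%), and coordinates and exon lengths come from GENCODE M21. Counts were tested with edgeR 4.0.16 (filterByExpr, minimum count 10, minimum total 15; TMM; quasi-likelihood F test, two-sided, no covariate; Benjamini-Hochberg over 12949 genes, called under 0.05), a procedure also tested on simulated data. The simulated data held few changed genes, in equal numbers up and down, so they do not test the scaling. The share of false calls there was near 0.05 for edgeR but above it for DESeq2, which serves only as an alternative. The bound to be met was relaxed after DESeq2 had failed an earlier one. The SE is the log2 fold change over the square root of F, with its sign dropped. Values in CPM were computed from the deposited counts over TMM-scaled library sizes.

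The members and lists were chosen with earlier results of these data known. All 39 members are named. From each other list the called gene with the smallest p in each direction is named, as are genes of steps beside a member, except for a gene that is not reported here. Ido2 was added after its values were seen. The alternatives were DESeq2 1.42.0, other scalings, no filter, removal of the 50 most abundant genes, the replicate number as a block, and leaving out each library.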

Additional observations from a re-analysis of the deposited data

How the results depend on the processing

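On the total-count scale, 1285 genes over the whole table were called lower and 4861 higher, against 2680 and 2644 with TMM, and the median log2 fold change of the 39 genes was -0.48 against -0.79. Leaving out each library in turn gave 24 to 30 of the 39 lower and 2 to 3 higher, a median of -0.84 to -0.66, 1489 to 2789 genes lower (the lowest without senescent replicate 3) and 1836 to 2691 higher. The log2 change of Prodh over Prodh2, -0.02, turned sign in that range (-0.19 to 0.21), being above 0 without senescent replicate 1 (0.21) and without healthy replicate 2 (0.084). The causes were not tested. DESeq2, RLE size factors and removal of the 50 most abundant genes each gave 31 lower and 3 higher, and no filter gave 30 and 3. Over the 12 alternatives 24 of 34 called members kept their call in every one, and 0 called members turned direction.

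The replicate number as a block gave 30 of the 39 lower and 3 higher, and 2625 genes lower and 2576 higher. Same-numbered libraries did not deviate together throughout (correlations across genes of 0.23, -0.17 and -0.043 for numbers 1, 2 and 3). Differently numbered ones ran from -0.33 (senescent 1 with healthy 3) to 0.38 (senescent 2 with healthy 3). With groups of 3 these values cannot settle whether a number marks a shared animal, litter or day, and no label says so. Groups of 3 limit the precision, and counts of reads that PCR copied are not independent molecules.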
